A study of Homo sapiens with 12 samples.

Results

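CXCL10-high SCC1 cells were the cells of the line SCC1 that held 10 or more unique molecular identifiers (UMIs) of the chemokine transcript CXCL10. They were chosen by that raw count alone, in each of the 4 SCC1 libraries, and were set against the CXCL10-zero cells, which had 0 CXCL10 UMIs in the same library. The rule gave 250 high cells among 5270 SCC1 cells, of 23914 cells in the whole series. The other SCC1 cells were 4231 zero cells and 789 cells with 1 to 9 CXCL10 UMIs. Because CXCL10 selected the cells, its own values are a description and were not tested.

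SCC1, SCC6 and SCC25 are established human lines of squamous carcinoma of the head and neck (HNSCC). Cells of each line received 100 nM cetuximab, a therapeutic antibody against the growth factor receptor EGFR, every day for 5 days, or phosphate-buffered saline (PBS) alone as the control. Each group had 2 replicates, and whether these were separate cultures or libraries of 1 culture was not clear, so the spread between them, and every p-value, may be technical. Transcripts were counted with a droplet-based 3′ single-cell assay, in which a UMI marks 1 captured RNA molecule.

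CXCL10 is a secreted chemokine that binds the receptor CXCR3 on activated T cells and natural killer cells. Its transcription is known to be switched on by interferons, through STAT and IRF factors that bind interferon-stimulated response elements (ISRE), and by inflammatory signals through NF-kB. Epithelial and tumour cells can make it, and single cells of 1 culture are known to switch interferon genes on to very unequal extents.

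The promoters of 4 genes are shown because the transcripts of these genes marked the high cells in different ways. CXCL10 defined the cells, CXCL11 was the transcript most like it, ISG20 stood for interferon-stimulated genes and CXCL1 for chemokines of neutrophils. Each sequence is the 250 bases before the gene start in RefSeq (GRCh38.p14), written 5′ to 3′ on the strand of the gene. Capitals mark the ISRE-like letters (GAAA and GAAA with NN between them, where N is any base) or the NF-kB consensus, both searched on either strand. The windows are chr4:76023498-76023747 for CXCL10 (minus strand), chr4:76036071-76036320 for CXCL11 (minus strand), chr15:88638766-88639015 for ISG20 (plus strand) and chr4:73869143-73869392 for CXCL1 (plus strand).
CXCL10: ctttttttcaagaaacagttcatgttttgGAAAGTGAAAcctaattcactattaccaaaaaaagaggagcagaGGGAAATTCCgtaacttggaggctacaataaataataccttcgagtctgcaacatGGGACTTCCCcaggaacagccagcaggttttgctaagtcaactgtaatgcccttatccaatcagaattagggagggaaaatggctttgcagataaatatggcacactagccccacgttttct
CXCL11: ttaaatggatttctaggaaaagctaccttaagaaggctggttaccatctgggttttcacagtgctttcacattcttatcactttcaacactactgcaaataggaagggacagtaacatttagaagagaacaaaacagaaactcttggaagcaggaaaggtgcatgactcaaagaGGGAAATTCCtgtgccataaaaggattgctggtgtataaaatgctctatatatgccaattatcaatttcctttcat
ISG20: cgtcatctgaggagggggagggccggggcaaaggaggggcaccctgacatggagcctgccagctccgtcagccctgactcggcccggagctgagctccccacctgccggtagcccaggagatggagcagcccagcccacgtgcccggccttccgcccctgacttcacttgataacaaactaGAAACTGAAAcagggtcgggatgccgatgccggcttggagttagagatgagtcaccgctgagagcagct
CXCL1: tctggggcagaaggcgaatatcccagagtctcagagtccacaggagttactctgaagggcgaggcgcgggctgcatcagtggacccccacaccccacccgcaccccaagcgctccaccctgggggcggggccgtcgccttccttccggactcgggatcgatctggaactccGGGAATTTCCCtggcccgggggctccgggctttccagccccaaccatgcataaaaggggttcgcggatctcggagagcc
The CXCL10 window held the ISRE-like letters at -221 to -212 from the start and the NF-kB consensus at -177 to -168 and, on both strands, at -122 to -113. CXCL11 held the NF-kB consensus at -76 to -67, ISG20 the ISRE-like letters at -69 to -60, and CXCL1 overlapping NF-kB matches at -79 to -70 and -78 to -69. Of 35116 RefSeq windows of this length, 3.02% held the ISRE-like letters, 9.96% the NF-kB consensus and 0.202% both, as the CXCL10 window did. A match describes the letters in the window and does not show that a factor binds there.

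High cells were few with PBS and made up very different shares of the 2 cetuximab libraries. There were 10 among 1263 cells in PBS replicate 1 (0.792%, exact binomial 95% interval 0.380% to 1.45%) and 3 among 1666 cells in PBS replicate 2 (0.180%, 0.0372% to 0.525%). With cetuximab there were 200 among 961 cells in replicate 1 (20.8%, 18.3% to 23.5%) and 37 among 1380 cells in replicate 2 (2.68%, 1.89% to 3.68%). These intervals cover counting error only, and both cetuximab shares lay above both PBS shares. The mean share was 0.486% ± 0.433 (SD, n = 2) with PBS and 11.7% ± 12.8 (SD, n = 2) with cetuximab. An exact two-sided permutation test of 2 against 2 libraries cannot give p under 0.333, so the shares are a description. Of the 250 high cells, 200 came from the library cetuximab replicate 1.

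Almost all CXCL10 RNA of SCC1 sat in these cells. They held 92.2%, 90.3%, 94.99% and 93.9% of the CXCL10 UMIs of PBS replicate 1, PBS replicate 2, cetuximab replicate 1 and cetuximab replicate 2, an order used for all sets of 4 values below. The level of the whole library was 27.4, 9.66, 402 and 69.0 CPM, in which CPM is the UMIs of the gene per 1000000 UMIs of the summed cells. Without the high cells it was 2.17, 0.938, 26.7 and 4.34 CPM, so that the library order stayed the same among the remaining cells. The 1% of cells with most CXCL10 UMIs held 93.6%, 95.4%, 40.9% and 76.9% of the UMIs. In PBS replicate 2 a single cell with 635 of the 888 UMIs held 71.5% of them, whereas 16 cells were needed for 50% of the UMIs in cetuximab replicate 1, where the cell with most UMIs had 2159. Cells with any CXCL10 UMI were 6.65%, 3.48%, 66.9% and 18.4% of the libraries. In SCC6 they were 0.0350% to 0.181%, but those libraries held too little CXCL10 RNA to show how much free RNA adds. In cetuximab replicate 1, 203 cells had exactly 1 CXCL10 UMI, and the part of free RNA in cells with 1 to 9 UMIs was not tested. When each cell was thinned to 15000 UMIs, cells with 3 or more CXCL10 UMIs were 1.07%, 0.244%, 22.4% and 2.90%, after 130 shallower cells had been left out.

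**Figure D1:**
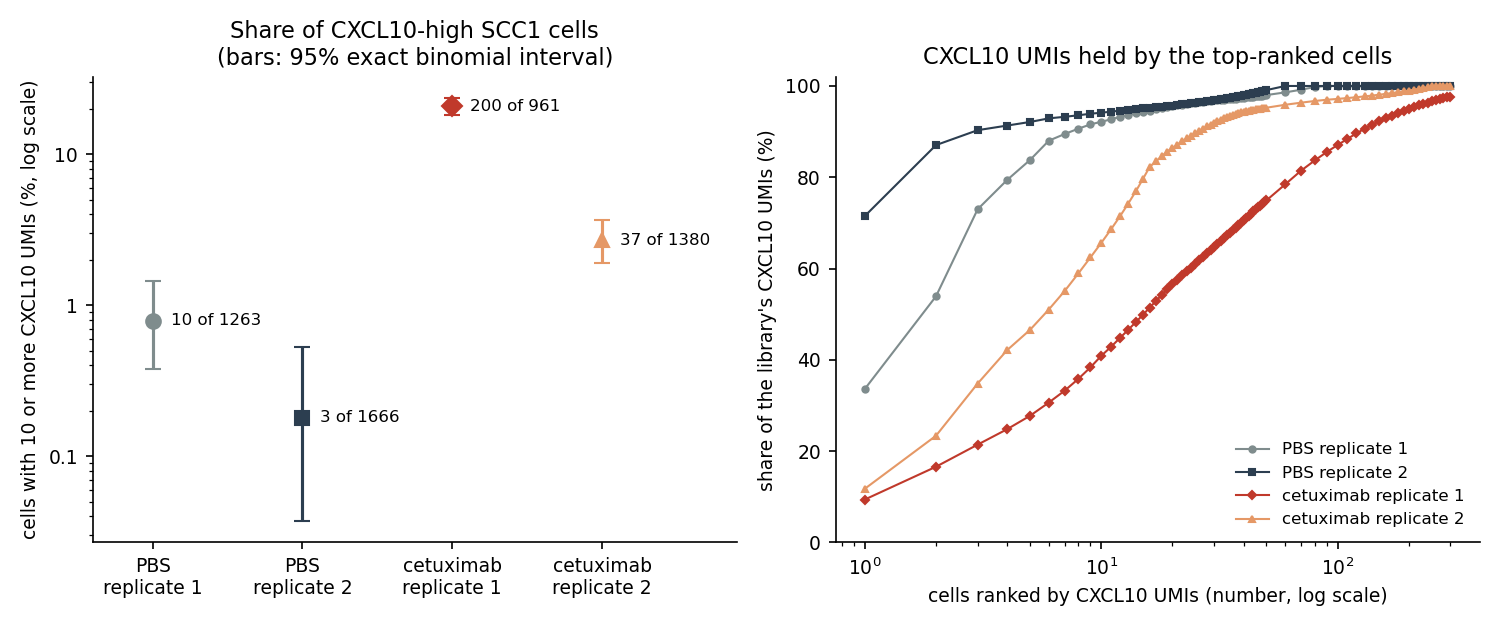
The left plot gives the percentage of SCC1 cells with 10 or more CXCL10 UMIs per library on a log scale, with exact binomial 95% intervals, from 0.180% in PBS replicate 2 to 20.8% in cetuximab replicate 1. The right plot gives the percentage of a library's CXCL10 UMIs held by its top-ranked cells against their number on a log scale, and 1 cell held 71.5% in PBS replicate 2 and 9.40% in cetuximab replicate 1.

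Within the high cells the counts spread widely. The median was 73.5, 138, 32 and 58 CXCL10 UMIs, and the ranges were 10 to 575, 29 to 635, 10 to 2159 and 12 to 640. At least 50 UMIs were found in 6, 2, 75 and 19 cells. The threshold cut through a continuous distribution: 13 cells with 9 UMIs and 13 with 8 lay just outside it, and 12 cells with 10 UMIs and 6 with 11 just inside.

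High cells carried more RNA than zero cells. The median total was 81594, 54820, 67196 and 58468 UMIs per high cell against 45634, 51890.5, 48367 and 50494 per zero cell. In PBS replicate 1, 40.0% of the high cells were among the 5% of cells with most UMIs, and in PBS replicate 2 none of the 3 were. Mitochondrial UMIs made up a median of 2.55%, 2.38%, 2.40% and 3.09% in high and 2.49%, 3.02%, 2.60% and 3.33% in zero cells. Doublets were not called, and the part of cell size or doublets in the results was not tested, but results are given below with the 5% of cells of most UMIs left out and with cells thinned. Libraries shared 1 to 4 cell barcodes per pair, and a high cell was among the shared barcodes in 2 cases for PBS replicate 2 with cetuximab replicate 1 and in 3 for the cetuximab pair.

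The label of squamous carcinoma cells held in high and zero cells alike. The summed level of 10 squamous epithelial identity markers was 8296, 11790, 12870 and 21824 CPM in the high and 7469, 7785, 14202 and 11853 CPM in the zero cells. KRT14, a basal keratin, made up 6366 CPM of this sum in the high and 2199 CPM in the zero cells of cetuximab replicate 2. Among 20 leukocyte markers, the pan-leukocyte gene PTPRC, the T-cell genes CD3D, CD3E and CD2, the natural killer genes NKG7 and GNLY and the B-cell gene MS4A1 had 0 UMIs in all 250 high cells. The summed leukocyte list was 62.7, 10.7, 44.8 and 37.3 CPM in the high and 23.7, 23.9, 29.3 and 16.4 CPM in the zero cells. Its UMIs in high cells came from CD68, a lysosomal protein of macrophages that other cells also make (519 UMIs), and CD14, a receptor for bacterial lipopolysaccharide (238 UMIs), and each of the other 18 markers had 0 to 3 UMIs. The fibroblast list stood at 16.6, 0, 16.8 and 46.6 CPM in high and 8.54, 7.35, 18.1 and 19.1 CPM in zero cells, with 3 to 7 of its 7 markers at 0 in the high cells. The endothelial, erythroid and liver markers had 0 to 2 UMIs per list and library in the high cells.

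For the comparison of other genes, UMIs were summed over the high and over the zero cells of each library and tested with the quasi-likelihood test of edgeR, with the library as a block and Benjamini-Hochberg adjustment (FDR). PBS replicate 2 had 3 high cells, under the minimum of 5, so that the fit used 3 libraries, and its values are given beside the others. The fit called 620 of 13173 genes (4.71%) at FDR under 0.05. Of these, 499 were higher in the high cells (3.79%) and 121 were lower (0.919%), and the median log2 fold change over all genes was -0.02. The number of calls was 278 without cetuximab replicate 2, 820 without cetuximab replicate 1 and 43 without PBS replicate 1, where only cetuximab libraries remained. The 620 genes kept their sign in each of these wherever they were tested. With the 5% of cells with most UMIs left out 304 genes were called, and with cells thinned to 15000 UMIs 322.

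The transcripts that stood out most encode chemokines for T cells. CXCL11, the close relative of CXCL10 that binds the same receptor CXCR3, stood at 309, 256, 255 and 422 CPM in the high and at 0.876, 0.486, 7.85 and 2.17 CPM in the zero cells. The summed high cells lay above the summed zero cells in every pair of libraries, and the log2 fold change was 6.98 ± 0.36 (SE, n = 3 libraries, FDR 5.49e-12). CCL5, which attracts T cells, stood at 318, 202, 340 and 2153 CPM in the high and at 10.8, 7.28, 97.4 and 55.1 CPM in the zero cells. Its log2 fold change was 4.08 ± 0.40 (SE, n = 3, FDR 1.69e-07), and without PBS replicate 1 it was 3.62 and no longer passed. CXCL9, the remaining CXCR3 ligand, was rare, with 2, 0, 17 and 3 UMIs in the high and 0, 1, 0 and 0 UMIs in the zero cells. In cetuximab replicate 1 it was at least 6.49-fold higher in the high cells, against a floor of 3 counts in the zero cells of that library. CXCL16, a chemokine held at the cell membrane, was higher by 0.68 ± 0.13 (SE, FDR 0.00208). CCL3, CCL4 and CX3CL1 had 0 to 1 UMIs per library in the high and 0 to 2 in the zero cells. CXCL9 had 0 UMIs in the zero cells of the fitted libraries, so it was tested through the high cells alone and could only be called higher. With it, 4 of the 4 tested members of a list of 7 T-cell-attracting chemokines were higher. Their median log2 fold change was 5.53, or 3.39 with CXCL9 at its bound. Without cetuximab replicate 1, 3 of 3 were called, without cetuximab replicate 2, 3 of 4, and without PBS replicate 1, 1 of 4.

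Cell by cell, CXCL11 followed CXCL10 closely and CCL5 less so. Of 112 SCC1 cells with 10 or more CXCL11 UMIs, 100 were CXCL10-high (89.3%), and these were 40.0% of the 250 high cells. Only 21 high cells had no CXCL11 UMI. CCL5 reached 10 or more UMIs in 202 cells, of which 76 were CXCL10-high (37.6% of these cells and 30.4% of the high cells), 68 cells with that much CCL5 had 0 CXCL10 UMIs, and 108 high cells had 0 CCL5 UMIs. The cell with most CXCL10 in cetuximab replicate 1 had 2159 CXCL10, 242 CXCL11 and 4 CCL5 UMIs. Among the 200 high cells of that library Spearman's rho with CXCL10 was 0.67 for CXCL11 and 0.35 for CCL5, and among the 37 of cetuximab replicate 2 it was 0.76 and 0.61, as a description of cells that share a library and differ in depth.

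**Figure D2:**
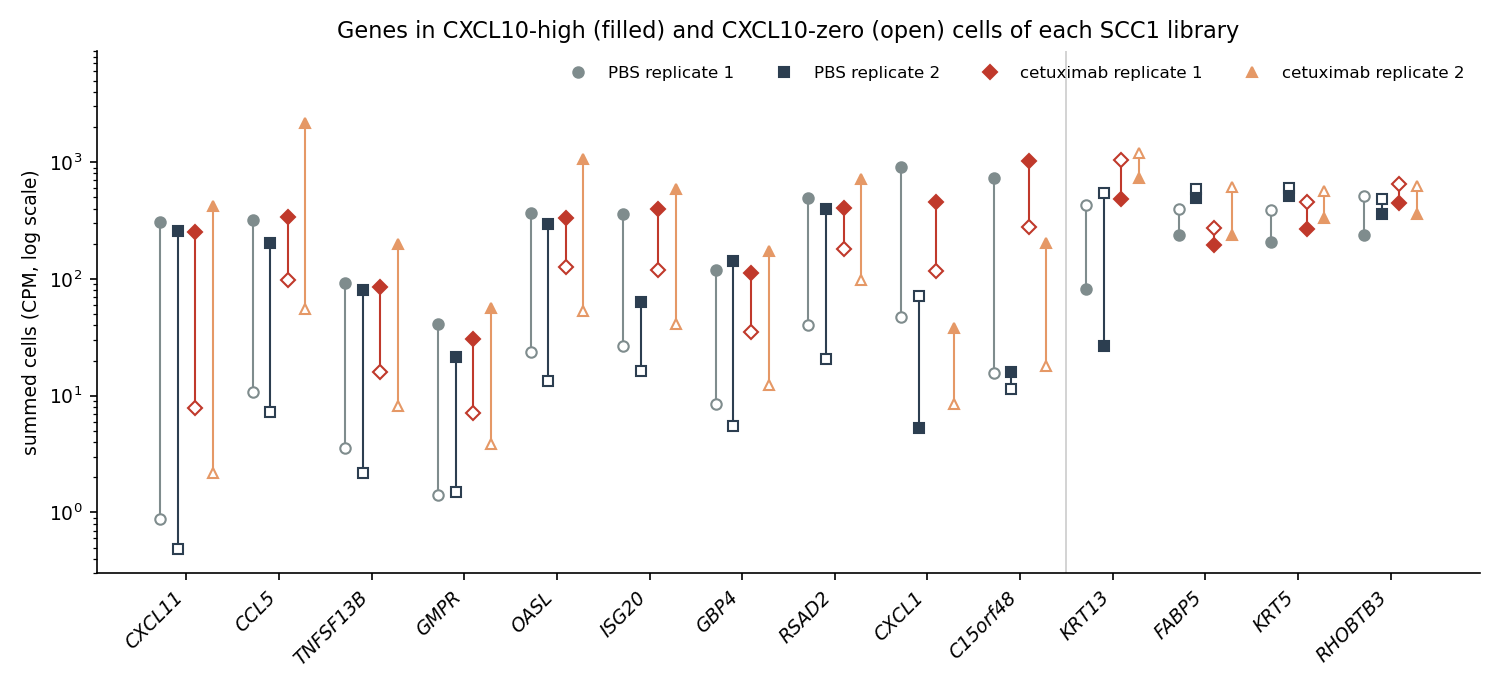
Each gene is drawn for the 4 SCC1 libraries in CPM of the summed cells (log scale), with filled symbols for CXCL10-high and open symbols for CXCL10-zero cells of the same library. CXCL11 was at 255 to 422 CPM in high and 0.486 to 7.85 CPM in zero cells, CXCL1 was higher in 3 of the 4 libraries, and KRT13, FABP5, KRT5 and RHOBTB3 were lower in all 4.

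Interferon transcripts themselves were scarce. IFNB1, the gene of interferon beta, had 2, 1, 14 and 3 UMIs in the high and 5, 7, 6 and 11 UMIs in the zero cells. Its level was 2.37, 5.33, 1.01 and 1.27 CPM in the high and 0.0876, 0.0792, 0.377 and 0.178 CPM in the zero cells, and the log2 fold change of 2.46 ± 0.83 (SE) did not pass the test (FDR 0.105). The 11 UMIs of IFNL3, a type III interferon, in cetuximab replicate 1 came from 1 cell. At least 1 UMI of IFNB1, IFNL1, IFNL2 or IFNL3 was found in 3 of 10, 1 of 3, 9 of 200 and 2 of 37 high cells, and in 5 of 1179, 7 of 1608, 9 of 318 and 10 of 1126 zero cells. In cetuximab replicate 1, which gave most high cells, the shares were 4.5% and 2.83%, and high cells were also deeper. Most high cells showed no interferon transcript at this depth. Of 10 type I and III interferons, 2 were expressed enough to be tested and 0 were called, or 1 with the high cells of PBS replicate 2 added. In the cells with 1 to 9 CXCL10 UMIs IFNB1 was called (FDR 0.0389), but 1 cell of cetuximab replicate 1 held 58 of the 64 UMIs there, and the other libraries had 3, 0 and 5 UMIs. Of 6 tested receptor genes, IFNGR2, a chain of the interferon gamma receptor, was higher by 0.46 ± 0.12 (SE, FDR 0.0239), a call that was lost without cetuximab replicate 2 or PBS replicate 1. The type I receptor chains IFNAR1 and IFNAR2 had log2 fold changes of 0.16 and 0.20 (FDR 0.590 and 0.471).

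Sensors of foreign or misplaced nucleic acid were higher. Of 15 tested members of this list 9 were called higher and 0 lower, with a median log2 fold change of 1.04 beside -0.02 over all genes. IFIH1, the RNA sensor MDA5, stood at 95.8, 138, 104 and 146 CPM in the high and at 18.6, 15.6, 64.7 and 40.4 CPM in the zero cells. No zero value reached a high value, and the log2 fold change was 1.58 ± 0.18 (SE, FDR 2.56e-06). DDX58, the RNA sensor RIG-I, was higher by 1.29, ZBP1, a sensor of Z-form nucleic acid, by 2.01, AIM2, a DNA sensor of inflammasomes, by 3.55, and TMEM173, the DNA-sensing adaptor STING, by 1.22. CGAS, the enzyme upstream of STING, and MAVS, the adaptor of the RNA sensors, did not pass (0.41 and -0.17). Among 16 tested STAT and IRF signalling genes 6 were higher and 0 lower, with a median of 0.46. Among them were the feedback inhibitors USP18 (1.40) and SOCS1 (1.22), and the factors IRF1 (1.08), IRF7 (0.89) and STAT2 (0.56). Without PBS replicate 1, 0 members of either list were called.

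Interferon-stimulated genes were higher as a group, by sizes that differed widely. Of 40 type I interferon-stimulated genes all were tested, 32 were higher and 0 lower, and the median log2 fold change was 0.75. OASL, an antiviral protein of the oligoadenylate synthetase family, stood at 364, 298, 331 and 1063 CPM in the high and at 23.4, 13.3, 127 and 52.8 CPM in the zero cells, without overlap (log2 fold change 3.28 ± 0.33, SE, FDR 2.39e-07). ISG20, an exonuclease that degrades RNA, stood at 357, 63.9, 394 and 586 CPM against 26.9, 16.2, 120 and 41.3 CPM. The sum of the 3 high cells in PBS replicate 2 lay below that of the zero cells of cetuximab replicate 1. For ISG20 the log2 fold change was 3.12 ± 0.25 (SE, FDR 1.01e-08). RSAD2, the antiviral enzyme viperin, stood at 496, 399, 404 and 711 CPM against 40.4, 20.8, 179 and 97.2 CPM (2.58 ± 0.25, SE, FDR 1.65e-07). IFIT2 and IFIT1, which bind foreign RNA, were higher by 1.74 and 1.504. The abundant ubiquitin-like modifier ISG15 was 0.96 higher, at 4620, 3216, 8279 and 8554 CPM against 2445, 1133, 5612 and 3497 CPM. Here the summed zero cells of cetuximab replicate 1 lay above the summed high cells of both PBS libraries. MX1, a GTPase active against influenza, was higher by 0.61, whereas IFI44L, IFITM3 and BST2 did not pass (0.37, 0.36 and 0.32). The list had 36 calls without cetuximab replicate 1, 22 without cetuximab replicate 2, 22 without the 5% of cells of most UMIs, and 2 without PBS replicate 1, where the median was 0.62.

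The genes known for their response to interferon gamma were higher in 13 of 14 tested cases of a list of 16, with a median of 1.33. IDO1, which breaks down tryptophan, stood at 3.55, 5.33, 8.70 and 23.3 CPM in the high and 0.333, 0.204, 1.19 and 0.324 CPM in the zero cells. These levels were low but did not overlap, and the log2 fold change was 4.47 ± 0.49 (SE, FDR 1.05e-06). The guanylate-binding proteins GBP5 (3.53), GBP4 (3.08) and GBP1 (1.37), the tryptophanyl-tRNA synthetase WARS (1.62) and CD274, the checkpoint ligand PD-L1 (1.00), were also higher. In HLA class I antigen presentation 13 of 17 genes were higher and 0 lower, with a median of 0.62. TAP1, which pumps peptides into the endoplasmic reticulum, stood at 364, 389, 411 and 534 CPM in the high and 85.9, 85.6, 239 and 175 CPM in the zero cells (1.51 ± 0.16, SE, FDR 4.07e-07). NLRC5, an activator of class I genes, was higher by 1.21, HLA-B by 0.70 and the light chain B2M by 0.45. HLA genes are near-identical copies, and how reads were divided among them is uncertain. Each of both lists had 3 calls without PBS replicate 1, and the class I list had 6 without cetuximab replicate 2.

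**Figure D3:**
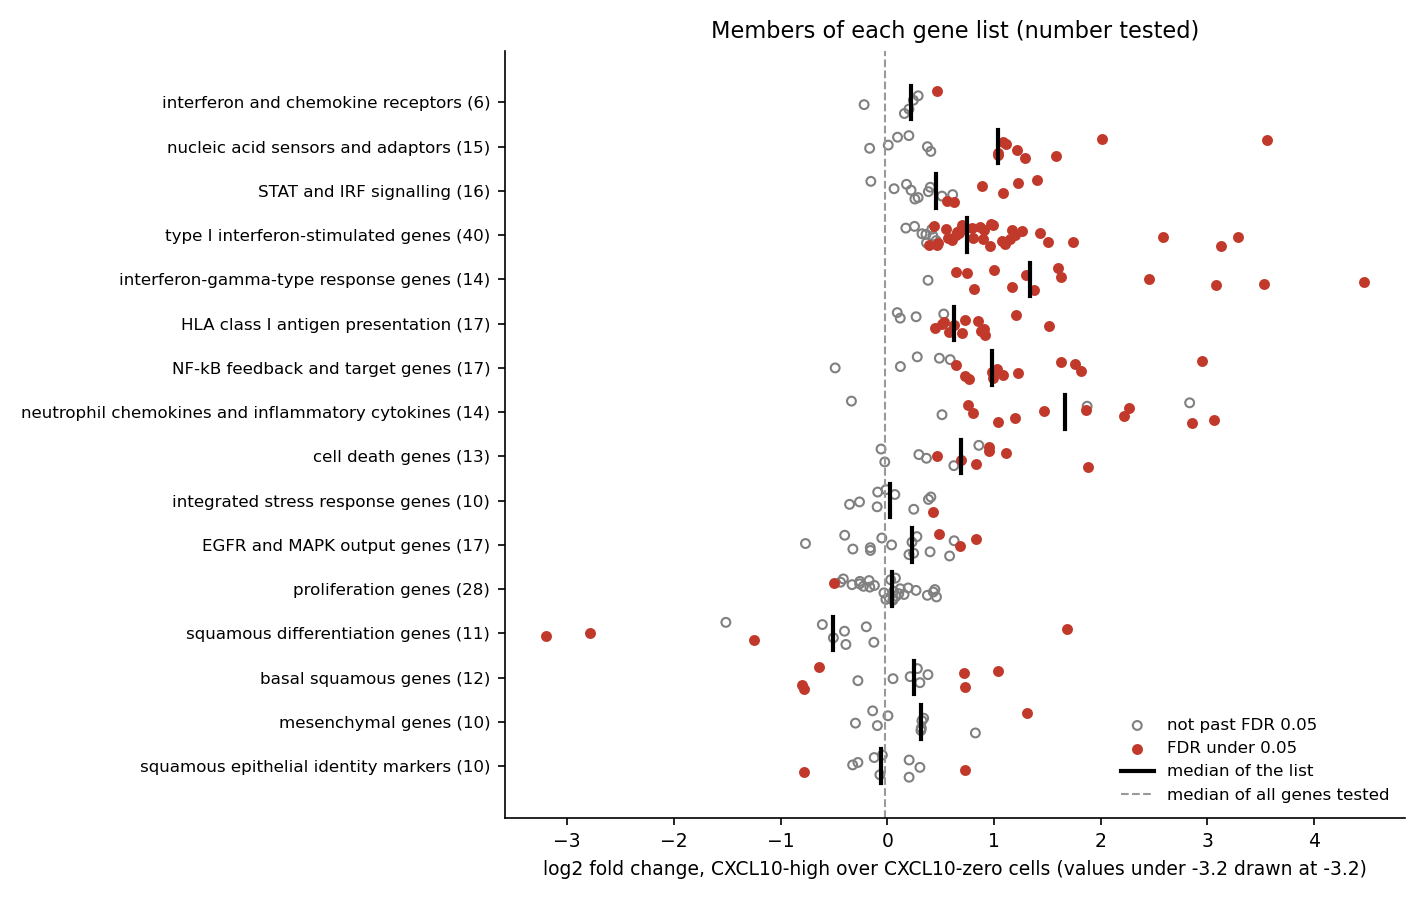
Each point is 1 gene of a list, placed by its log2 fold change between CXCL10-high and CXCL10-zero SCC1 cells over 3 libraries, filled where FDR is under 0.05, with the list's median as a bar and the median of all genes (-0.02) as a dashed line. The lists of interferon response, antigen presentation and NF-kB targets lie to the right, proliferation genes lie around 0, and SPRR1B, beyond the left end, is drawn at the limit.

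Targets and feedback inhibitors of NF-kB were higher in 12 of 17 cases and lower in 0, with a median of 0.98. NFKBIA, the inhibitor that keeps NF-kB in the cytoplasm, stood at 469, 170, 460 and 326 CPM in the high and 228, 250, 335 and 200 CPM in the zero cells. The direction was the opposite in PBS replicate 2, and over the other 3 libraries the log2 fold change was 0.77 ± 0.12 (SE, FDR 0.000156). The ubiquitin-editing inhibitor TNFAIP3 (1.23), the survival factor BIRC3 (1.81), the adhesion molecule ICAM1 (1.76) and the mitochondrial superoxide dismutase SOD2 (1.63) were higher, and REL, an NF-kB subunit, did not pass (-0.49). The list had 1 call without PBS replicate 1.

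Chemokines of neutrophils and inflammatory cytokines were higher as well, and for CXCL1, CXCL8 and IL1B few cells held most of the UMIs, mainly in PBS replicate 1. CXCL1 stood at 918, 5.33, 458 and 37.7 CPM in the high and 47.6, 71.8, 118 and 8.56 CPM in the zero cells, so that high and zero cells overlapped across libraries and PBS replicate 2 went the other way. The log2 fold change over the other 3 libraries was 2.86 ± 0.26 (SE, FDR 9.39e-08). The cell with most CXCL10 in PBS replicate 1 held 713 of the 776 CXCL1 UMIs of the high cells there (91.9%), and also 86.7% of the CXCL8, 71.4% of the IL1B and 78.6% of the IL6 UMIs. Next, the high cell and the zero cell with most UMIs of the gene were left out of each library. The median log2 ratio over the fitted libraries was then 1.36 for CXCL1, -0.07 for CXCL8 and 0.30 for IL1B, beside 7.56 for CXCL11 and 3.73 for OASL. The list had 18 members, 14 tested, 10 higher and 0 lower, with a median of 1.66, and 7 called without the cell of most CXCL10 UMIs in each library. It had 6 calls of 12 without cetuximab replicate 1, 4 of 12 without PBS replicate 1 and 5 of 14 without the 5% of cells of most UMIs. IL32, an inflammatory cytokine, was higher by 1.86 and the fever cytokine IL6 by 1.46, and thinned cells with an IL6 UMI were 59.4% of the high and 38.2% of the zero cells of cetuximab replicate 1. The summed list went through 912, 1273, 1826 and 2102 CPM over cells with 0, 1 to 9, 10 to 49 and 50 or more CXCL10 UMIs in that library. In its high cells rho with CXCL10 was -0.00 for CXCL1, 0.07 for IL32 and 0.07 for NFKBIA.

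Other genes with large rises have varied roles. TNFSF13B, the B-cell survival factor BAFF, stood at 92.2, 79.9, 85.4 and 200 CPM in the high and 3.55, 2.18, 16.1 and 8.09 CPM in the zero cells, without overlap (3.88 ± 0.27, SE, FDR 1.86e-09). GMPR, the reductase that turns GMP into IMP, was at 41.4, 21.3, 30.7 and 56.3 CPM against 1.40, 1.504, 7.09 and 3.88 CPM (3.44 ± 0.29, SE, FDR 1.75e-08). C15orf48, which encodes a small mitochondrial protein, was at 728, 16.0, 1014 and 204 CPM against 15.5, 11.4, 276 and 17.97 CPM (3.63 ± 0.36, SE, FDR 2.39e-07), and it overlapped across libraries. HRASLS2, a phospholipid-modifying enzyme (2.57), SECTM1, a ligand of CD7 (2.48), NEURL3, a ubiquitin ligase (2.38), FYB1, an adaptor of T-cell signalling (2.33), and LTB, lymphotoxin beta (2.16), completed the 15 largest rises. Without PBS replicate 1, CCL5, OASL, RSAD2, HRASLS2, NEURL3 and LTB were no longer called.

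Cell death genes were higher in 7 of 13 cases and lower in 0, with a median of 0.69. TNFSF10, the death ligand TRAIL, stood at 277, 431, 399 and 514 CPM in the high and 63.7, 60.6, 173 and 109 CPM in the zero cells, without overlap (1.88 ± 0.15, SE, FDR 1.08e-08). PMAIP1, the BH3 protein NOXA (1.12), MLKL, the executor of necroptosis (0.95), and the inflammatory caspase CASP1 (0.84) were higher as well. Of 10 integrated stress response genes DDIT3, the factor CHOP, was higher (0.43) and 0 were lower, with a median of 0.03. Of 17 output genes of EGFR and MAPK signalling 3 were higher, FOSL1 (0.83), PHLDA1 (0.69) and JUNB (0.49), and 0 lower, with a median of 0.23. The cell death list had 4 calls without cetuximab replicate 2 and 2 without PBS replicate 1, and the latter left 0 calls in the other lists. Without cetuximab replicate 1, 3 EGFR and MAPK genes were higher and 2 lower, and without cetuximab replicate 2, 1 was higher.

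Few proliferation genes were called. Of 28 tested, MCM5, a subunit of the replicative helicase, was lower by 0.50 on the log2 scale (FDR 0.0327) and 0 were higher, and the median was 0.04. Without cetuximab replicate 1, 2 were higher and 4 lower, and without cetuximab replicate 2, 4 were higher and 0 lower, so that the direction depended on the library. In the cells with 50 or more CXCL10 UMIs the summed list was at 2827, 1744, 1013 and 1637 CPM, below the zero cells of each library (3550, 4189, 1197 and 2658 CPM). In the cells with 10 to 49 UMIs it was at 9041, 6581, 1497 and 2507 CPM, above the zero cells in 3 of 4 libraries. After thinning, cells with a UMI of the cycling genes MKI67 or TOP2A were 80.0%, 33.3%, 27.4% and 48.6% of the high and 69.5%, 67.3%, 23.3% and 46.5% of the zero cells. These shares differed between libraries more than between high and zero cells, except in PBS replicate 2 with its 3 high cells.

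Keratins of the squamous layers were among the genes that were lower. KRT13, a keratin of differentiating mucosa, stood at 82.8, 26.6, 484 and 728 CPM in the high and 430, 542, 1046 and 1204 CPM in the zero cells, lower in 4 of 4 libraries but overlapping across them. It fell by 1.25 on the log2 scale (SE 0.19, FDR 9.48e-05). KRT5, a basal keratin, stood at 208, 517, 267 and 330 CPM against 388, 602, 457 and 571 CPM (-0.78 ± 0.12, SE, FDR 0.000105), and KRT15, another basal keratin, was lower by a like amount (-0.80, FDR 0.00253). AKR1C2, a steroid-reducing enzyme, had the largest drop of the named genes, from 26.2, 30.7, 103 and 65.1 CPM in the zero to 4.73, 0, 48.4 and 13.97 CPM in the high cells (-1.47 ± 0.18, SE, FDR 6.49e-06). FABP5, a fatty acid carrier (-0.82), AQP3, a water and glycerol channel (-0.78), BCAM, a laminin receptor (-0.85), TNNT3, a muscle troponin (-0.92), RHOBTB3 (-0.77), and FST, the activin inhibitor follistatin (-0.77), were lower too. Without PBS replicate 1, KRT13 alone of these 10 was still called.

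The keratin lists held calls in both directions. Of 22 squamous differentiation genes 11 were tested, 3 were lower and 1 higher, with a median of -0.51. Only 1 of the 11 had a positive log2 fold change. The summed list stood at 798, 834, 1316 and 1502 CPM in the zero cells. It was lower in cells with 10 to 49 CXCL10 UMIs (576, 497, 627 and 901 CPM) and with 50 or more (409, 364, 882 and 981 CPM). KRT13 alone stood at 430, 542, 1046 and 1204 CPM in the zero cells. The part of single genes in these sums was not tested. The cornified envelope gene SPRR1B had 0 UMIs in the high cells of all 4 libraries against 389, 22, 3 and 649 UMIs in the zero cells. In cetuximab replicate 2 it was at least 8.27-fold lower, at a floor of 3 counts in the high cells. SPRR1B was thus tested through the zero cells alone and could only come out lower. The list's median was also -0.51 with SPRR1B at its bound. S100A8, a calcium-binding protein found at no more than 8.03 CPM, fell by 2.78 on the log2 scale, and TGM1, the transglutaminase of the cornified envelope, was higher by 1.68. Of 12 basal genes KRT5, KRT15 and DST, which anchors keratins at hemidesmosomes (-0.64), were lower, while 3 were higher, among them KRT14 (0.73) and LAMB3, a laminin chain (0.72). Of 10 tested mesenchymal genes 1 was higher and 0 were lower. KRT14 stood at 2093, 1539, 2624 and 6366 CPM against 1294, 1409, 2888 and 2199 CPM. Its median log2 ratio over the fitted libraries was 0.02 without the high cell and the zero cell that held most of its UMIs in each. Of the basal genes 5 were higher without cetuximab replicate 1 and 1 without cetuximab replicate 2, with 3 lower in each case. Without PBS replicate 1, 2 differentiation, 0 basal and 0 mesenchymal genes were called, and without cetuximab replicate 1 there were 3 mesenchymal calls.

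The level of CXCL11 climbed in steps with the CXCL10 count, and other genes followed unevenly. In cells with 0, 1 to 9, 10 to 49 and 50 or more CXCL10 UMIs, CXCL11 stood at 7.85, 17.5, 87.2 and 499 CPM in cetuximab replicate 1 and at 2.17, 7.72, 95.4 and 655 CPM in cetuximab replicate 2. In the PBS libraries, with 1 to 6 high cells per step, it reached 406 and 420 CPM in the last step. OASL in the same steps was at 127, 118, 173 and 560 CPM in cetuximab replicate 1 and at 52.8, 81.9, 171 and 1701 CPM in cetuximab replicate 2. The step at 50 UMIs was the steepest for OASL in both libraries, whereas in PBS replicate 1 it stood at 23.4, 115, 361 and 366 CPM and had its rise below that step. The summed type I interferon-stimulated genes rose through the steps from 27806 to 28464, 32872 and 41640 CPM in cetuximab replicate 1, with no test made across steps.

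The edgeR test of the cells with 1 to 9 UMIs against the zero cells called 135 of 13755 genes (0.981%), with 104 higher and 31 lower. CXCL11 had a log2 fold change of 2.07 ± 0.29 (SE, FDR 0.00112) here beside 6.98 in the high cells, ISG20 0.95 beside 3.12 and KRT13 -0.43 beside -1.25. Of the 40 type I interferon-stimulated genes 5 were higher, with a median of 0.15, and of the 17 HLA class I genes 9, with a median of 0.16. Both comparisons share the zero cells, so that they are given side by side and not as support for each other.

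**Figure D4:**
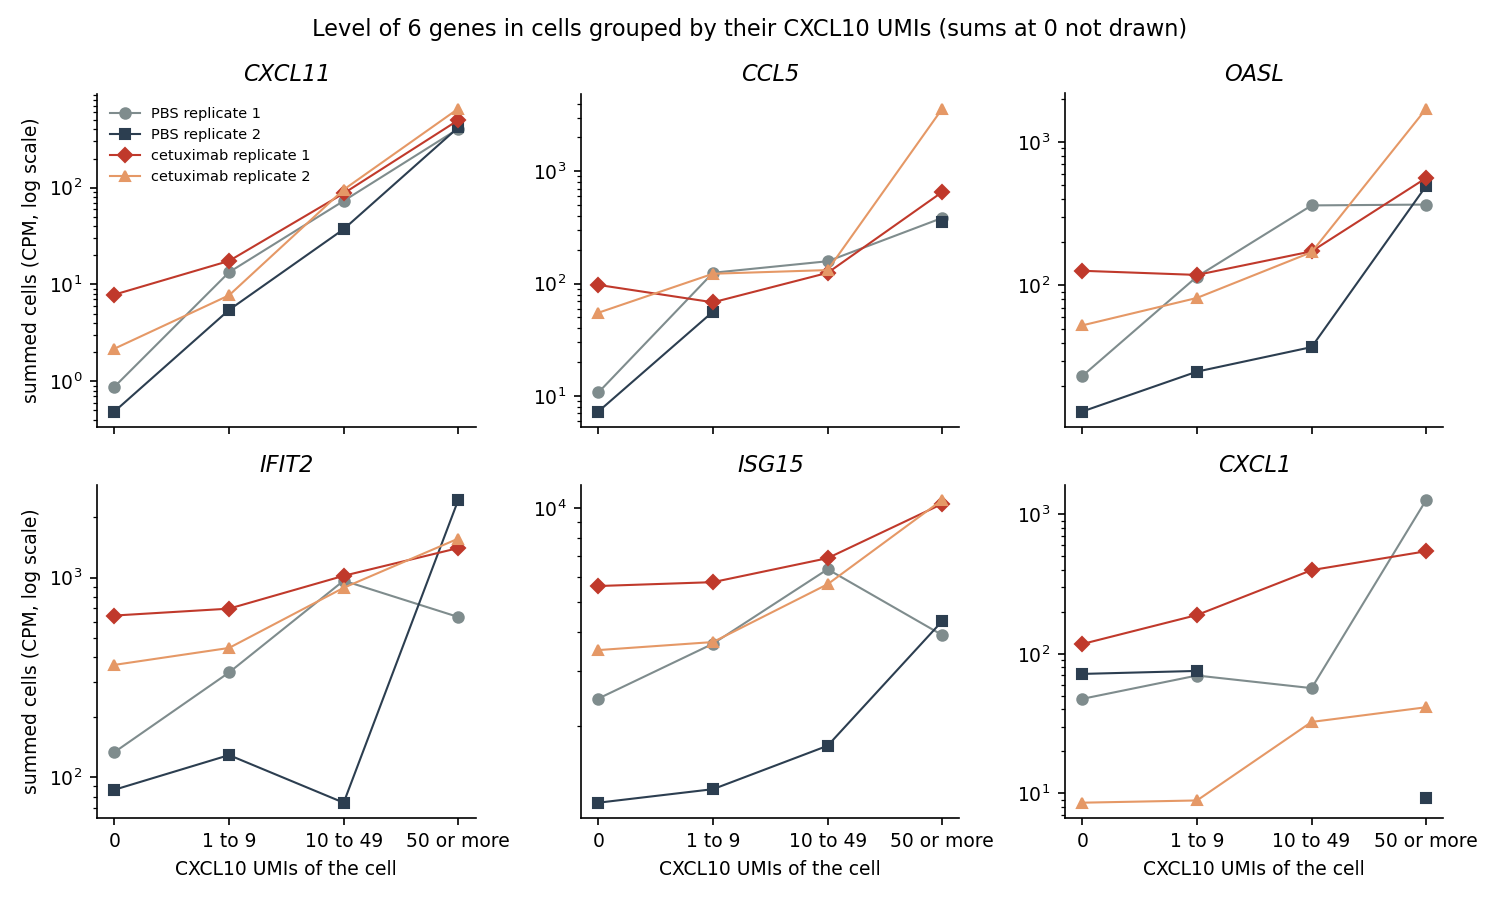
Each plot gives the level of 1 gene (CPM of the summed cells, log scale) in cells grouped by their CXCL10 UMIs, with 1 line per SCC1 library, and sums at 0 are not drawn. CXCL11 climbed at every step in the 4 libraries, whereas OASL in cetuximab replicate 1 went from 127 to 118 CPM before reaching 560 CPM, and CXCL1 in PBS replicate 1 was high only with 50 or more UMIs.

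The transcripts most like CXCL10 across all cells of a library, by the mean of Spearman's rho over the 4 libraries among genes found in at least 5% of SCC1 cells, were CXCL11 (0.38), TNFSF13B (0.22), ISG20 (0.22), GMPR (0.22), GBP4 (0.21), NT5C3A (0.20), OASL (0.19), TNFSF10 (0.19), TAP1 (0.18) and GBP5 (0.18). For CXCL11 rho ran from 0.19 in PBS replicate 2 to 0.58 in cetuximab replicate 1. Apart from CXCL11 these values are low, as counts are sparse and most cells had 0 CXCL10 UMIs.

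High CXCL10 overlapped with a strong interferon response without being the same set of cells. By the summed type I interferon-stimulated genes in cells thinned to 15000 UMIs, the high cells had median percentiles of 94.6, 99.2, 72.5 and 93.5 within their library. Of the high cells, 7 of 10, 2 of 3, 53 of 197 and 21 of 37 lay among the 10% of cells with the highest sum, as did 8.22%, 9.80%, 4.65% and 8.45% of the zero cells. Of those top cells, 5.69%, 1.22%, 56.4% and 15.7% were CXCL10-high, shares that the number of high cells limits. In cetuximab replicate 1, 47 of 197 high cells lay in the lower 50% of their library. For proliferation genes the median percentiles were 61.1, 34.2, 43.6 and 40.6, and for squamous differentiation genes 44.4, 51.3, 42.9 and 26.5.

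Whether high and zero cells differed in the same way with and without cetuximab was tested in the same edgeR fit with an added term, over 1 PBS and 2 cetuximab libraries with 1 residual degree of freedom. The PBS side was 1 library with 10 high cells, so that the spread came from the cetuximab pair alone, and the values below describe these libraries. It called 85 of 13910 genes (0.611%), 20 with a higher (0.144%) and 65 with a lower difference (0.467%) under cetuximab. The difference for CXCL11 was -1.97 (SE 0.36, FDR 0.000100), that is, high and zero cells were closer on the log2 scale with cetuximab. With the 3 high cells of PBS replicate 2 added, the difference was -2.15 (FDR 0.0271). C15orf48 (-2.75), NEURL3 (-2.73), CXCL1 (-2.09) and FAM83D, a mitotic spindle protein (-1.99), also had lower differences, of which NEURL3 still passed with PBS replicate 2 added (-2.35, FDR 0.0160). CXCL1 then stood at -0.36 (FDR 0.973) and C15orf48 at -1.52 (FDR 0.760), and 1 cell of PBS replicate 1 held 91.9% and 53.9% of their UMIs in its high cells. KRT16, a stress keratin, had a higher difference, by 3.74 (SE 0.56, FDR 9.83e-07), at 10.6, 0, 57.3 and 651 CPM in the high and 18.2, 18.5, 32.7 and 24.9 CPM in the zero cells, but 1 cell held 53.1% of its UMIs in the high cells of cetuximab replicate 2. The natriuretic peptide NPPB (3.18) and the linker histone HIST1H1D (1.96) had higher differences too. NPPB stood at 2.37, 0, 131 and 88.1 CPM in the high and 22.2, 5.02, 158 and 94.9 CPM in the zero cells. It was thus lower in the high cells of each library and near the floor in those of PBS. Of these 2 genes NPPB passed with PBS replicate 2 added, as KRT16 did. The hyaluronan receptor LAYN went from 4.25 to 1.33 (FDR 0.949) with that library, since its high cells held 1 UMI in PBS replicate 1 and 7 UMIs in PBS replicate 2. CPA4, a carboxypeptidase, had 0 UMIs in the PBS high cells and 25.2 and 27.9 CPM in the cetuximab high cells. The zero cells stood at 9.93, 6.42, 36.5 and 23.2 CPM, above the high cells in cetuximab replicate 1. The difference of 10.8 for CPA4 rested on the absence of UMIs in few PBS cells, and it did not pass with PBS replicate 2 added (FDR 0.215). Between high and zero cells CPA4 was not called (-0.28, FDR 0.643). With PBS replicate 2 added 14 genes were called in all, and with the size factors of DESeq2 in edgeR 1.

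Among zero cells alone, the edgeR test of cetuximab against PBS over 2 against 2 libraries called 0 of 14853 genes (0.00%), with 1887 at an unadjusted p under 0.05, and DESeq2 called 483. Leaving out 1 library gave 22 calls without PBS replicate 2, 85 without cetuximab replicate 1, 281 without PBS replicate 1 and 756 without cetuximab replicate 2. Genes that marked high cells had positive values in the zero cells that did not pass in edgeR: 2.74 for CXCL11 (FDR 0.213), 2.99 for CCL5 (FDR 0.101) and 2.20 for OASL (FDR 0.174) on the log2 scale. For each of these 3 genes the summed zero cells of both cetuximab libraries lay above those of both PBS libraries.

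Of the other lines, SCC25 also held CXCL10-high cells and SCC6 held 0. In SCC25 they were 15 of 2318, 24 of 2576, 339 of 1999 and 41 of 2027 cells (0.647%, 0.932%, 17.0% and 2.02%), 419 of 8920 in all, and again cetuximab replicate 1 had most. SCC6 had 11 CXCL10 UMIs in 8 of 9724 cells, and its 0 high cells allow shares of up to 0.105% to 0.181% per library. Interferon transcripts were found in 26 of 419 SCC25 high cells and in 15 of 250 SCC1 high cells, pooled over libraries of unequal shares, with 461 and 39 UMIs. Among zero cells they were found in 42 of 7015 and 31 of 4231. In SCC25, 4 of 5 tested interferons were called higher, beside 0 of 2 in SCC1, and the fit over both lines below gave 2 a lower value in SCC1. The SCC25 zero cells held 0, 0, 0 and 2 IFNL2 and 0, 1, 1 and 2 IFNL3 UMIs, beside 4, 23, 1 and 31 of IFNL1. Interferons so rare in zero cells enter a test mainly through the high cells and can hardly be called lower. The counts of calls are therefore a description and no contrast of the lines. In cetuximab replicate 2 of SCC25, 1 cell held 172 of the 274 interferon UMIs of the high cells, and the part of single cells in these calls was not tested.

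The same comparison in SCC25, over 4 libraries, called 744 of 14613 genes (5.09%), 524 of them higher (3.59%) and 220 lower (1.51%). Among 12695 genes tested in both lines, 251 were higher in both, which is 51.9% of the SCC1 and 53.9% of the SCC25 calls, while 24 were lower in both (20.5% and 11.4%). RHOBTB3 was among the genes lower in both lines (-0.77 in SCC1, -0.85 in SCC25). TNFSF13B stood at 3.88 in SCC1 and 3.55 in SCC25, CCL5 at 4.08 and 4.02, GBP4 at 3.08 and 2.76 and OASL at 3.28 and 3.43. Without cetuximab replicate 1 the SCC25 count was 907, and without cetuximab replicate 2 it was 340.

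A fit over both lines tested the difference itself and called 50 of 15013 genes (0.333%), 20 with a higher and 30 with a lower value in SCC1. CXCL1 was set apart most among the named genes, at 2.86 in SCC1 and 0.18 in SCC25 (difference 2.59 ± 0.38, SE, FDR 0.000758), and CXCL3, a related chemokine, stood at 3.06 and 0.01 (FDR 8.49e-05). CXCL11 (6.98 and 4.58), FYB1 (2.33 and 0.59), PRSS23, a serine protease (2.02 and 0.37), and CD68 (1.64 and 0.10) were also further apart in SCC1. The opposite held for antiviral genes: IFIT2 stood at 1.74 in SCC1 and 3.97 in SCC25 (difference -2.33 ± 0.28, SE, FDR 8.49e-05), and HERC5 (1.44 and 3.37), IFIT1 (1.504 and 3.25), IFIT3 (1.07 and 2.87) and ISG15 (0.96 and 2.13) were likewise closer to 0 in SCC1. In all, 10 of the 40 type I interferon-stimulated genes had a smaller and 0 a larger rise in SCC1, and the list's median was 0.75 in SCC1 and 1.58 in SCC25. KRT5, at -0.78 in SCC1 and -0.02 in SCC25, and FABP5, at -0.82 and 0.11, differed between the lines at FDR 0.00695 each. HERC5, IFIT1, IFIT3, PRSS23 and CD68 are named by the size of this difference, a comparison added after the data were seen. CXCL1, CXCL11, FYB1, KRT5 and FABP5 were chosen by their change in SCC1, which favours a larger change there.

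**Figure D5:**
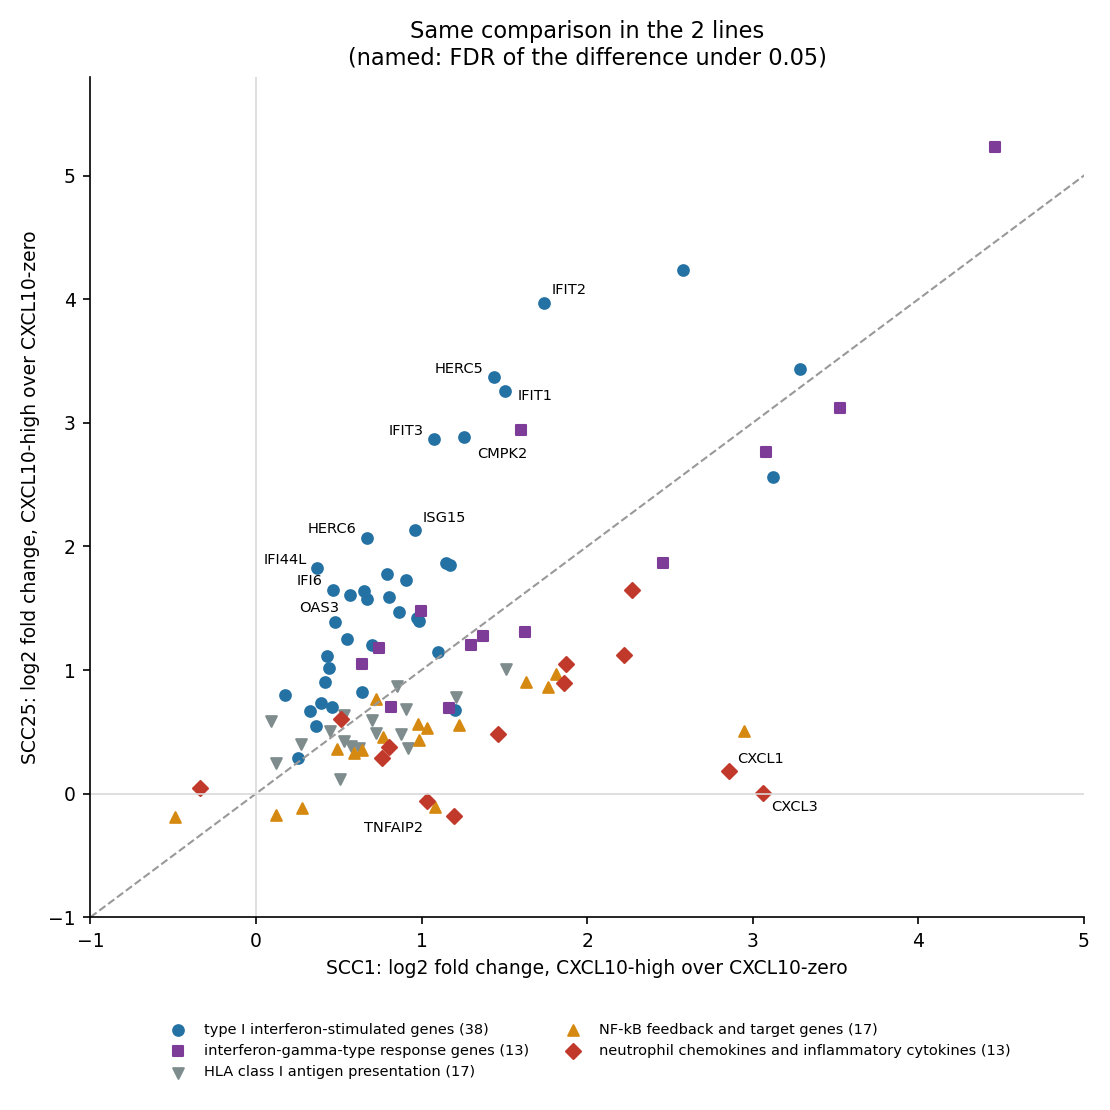
Each point is 1 gene, with its log2 fold change between CXCL10-high and CXCL10-zero cells in SCC1 on the horizontal and in SCC25 on the vertical axis, coloured by list, and the dashed line marks equal values. Genes named in the plot differed between the lines at FDR under 0.05, with IFIT2 at 1.74 and 3.97 above the line and CXCL1 at 2.86 and 0.18 below it.

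The letters of both motifs were counted in the promoters of 5 sets of genes, with no test. Of the 40 type I interferon-stimulated genes 34 had a RefSeq promoter window, and 22 of these held the ISRE-like letters and 5 the NF-kB consensus. Of the 15 genes with the largest rises 11 had a window, in which ISG20 alone held the ISRE-like letters and GBP4, NEURL3, CXCL1, CXCL11 and LTB the NF-kB consensus. Of 14 windows of the NF-kB list 6 held the NF-kB consensus and 0 the ISRE-like letters, and of 21 windows of proliferation genes 3 and 0. Of the 6 windows found for the 10 genes with the largest drops, that of FST held the NF-kB consensus and 0 held the ISRE-like letters. The shares over all windows were 3.02% and 9.96%.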

How the data were processed

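Single-cell RNA was measured in 12 libraries, and SCC1 had 4. The deposited values are raw UMI counts per gene and cell, which the authors made with Cell Ranger on GRCh38 (per the submitters' processing notes) after selecting cells. How reads were shared among near-identical genes is not given in the sources used here. Each SCC1 library held 57057402 to 91904880 UMIs. Of 33538 gene lines, 24 were added to another of the same symbol.

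UMI counts were summed over the CXCL10-high and CXCL10-zero cells of each library with 5 or more high cells. CXCL10 itself was left out of tests. Sums were tested in R 4.3.3 with edgeR 4.0.16 (quasi-likelihood F-test, limma 3.58.1, TMM factors, filterByExpr, library as block) and Benjamini-Hochberg adjustment over all genes tested at FDR 0.05. DESeq2 1.42.0 was an alternative. Cell values were computed in Python 3.11.15. On simulated counts for the SCC1 comparison, 44.5% of 200 genes changed 2-fold and 96.5% of those changed 4-fold were recovered among 13130 and 13142 genes. False calls were 6 and 8, which is 6.32% and 3.98% of the calls. The simulated libraries shared a mean profile and a fixed dispersion, so that differences between libraries and single cells with many UMIs were not part of it.

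Genes named outside the lists were the 15 largest rises and 10 largest falls at FDR under 0.05, a mean of at least 20 CPM and the same sign in every fitted library, the 10 most like CXCL10, and in other comparisons the 5 largest in each direction. The members, the 22 lists and the tests were chosen with earlier results of these data known. The SCC25, line and 1 to 9 UMI comparisons, and the fits that added PBS replicate 2 or left out the top CXCL10 cell, were added after the data were seen. Alternatives changed normalization, filters, depth, thresholds, blocks and libraries. Promoters of the genes came from RefSeq. Values of some list members are not reported here.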

Additional observations from a re-analysis of the deposited data

Results flagged for a closer look

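Of the 25 named genes, 5 differed between SCC1 and SCC25 in their change from CXCL10-zero to CXCL10-high cells, by the edgeR test of the difference itself over 3 SCC1 and 4 SCC25 libraries with Benjamini-Hochberg adjustment. CXCL11 was 2.29 higher on the log2 scale in SCC1 (FDR 0.0405), CXCL1 2.59 higher (FDR 0.000758) and FYB1 1.65 higher (FDR 0.00252). For FABP5 the difference was -1.03 (FDR 0.00695) and for KRT5 -0.85 (FDR 0.00695). Over all genes 50 of 15013 (0.333%) were called. The 25 genes were chosen by the size of their change in SCC1, which favours a larger change there, and all 5 had one. Their number is thus no measure of how the lines differ. CXCL1 in SCC1 moved with few cells, since 1 cell held 91.9% of its UMIs among the high cells of PBS replicate 1, and the part of that cell in the difference was not tested.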

How the results depend on the processing

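Depth and the number of libraries limited the comparisons: the high cells of PBS replicate 2 were 3, those of PBS replicate 1 were 10, and the treatment comparison of high cells rested on 1 PBS library. The 25 named genes kept their sign in all 18 alternatives, but 15 of them no longer passed without PBS replicate 1 and 13 no longer passed without the library block. High against zero in SCC1 gave 620 calls, and 304 without the 5% of cells with most UMIs, 322 with cells thinned, 359 with the class set after thinning, 215 against cells with 1 to 9 UMIs, 117 with no library block and 43 to 820 with 1 library left out. The difference between treatments, with 85 calls, gave 1 with DESeq2 size factors, 6 with DESeq2, 282 without the 5% of cells with most UMIs, 49 without cells above 20% mitochondrial UMIs, and 14 with PBS replicate 2 added. Its fits with 1 library left out and with the replicate block could not be fitted. In zero cells, with 0 calls, DESeq2 gave 483, no low-count filter 1076 and leaving out 1 library 22 to 756. SCC25, with 744 calls, gave 340 to 907 with 1 library left out. The causes were not tested. The share of high cells in cetuximab replicate 1 was 29.3% at 5 or more and 14.2% at 20 or more UMIs. The share of CXCL10 UMIs in the top 1% of cells became 90.1% after thinning and 91.2% without the cells with most UMIs in PBS replicate 1, 36.8% and 37.2% in cetuximab replicate 1, and 73.8% and 81.3% in cetuximab replicate 2.

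With the replicate number as a block, the calls were 677 in SCC1, 2358 in zero cells, 1231 in SCC25 and 26 for the treatment difference with PBS replicate 2 added. Replicates 1 and 2 deviated together between treatments (Pearson's r 0.61 across 14853 genes, which are not independent), but with 2 pairs and no stated pairing the samples share only a number.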
